A study of Rattus norvegicus with 939 samples.

Results

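Acetaminophen at 1950 uM was examined on 6 arrays of cultured primary rat hepatocytes, out of 939 arrays in the series. The treated arrays are those whose compound label reads Acetaminophen, 3 after 0.67 d and 3 after 1 d of exposure, and their reference is the 6 arrays of DMSO vehicle, 3 at each time, whose description names acetaminophen among the compounds they serve. The members were chosen by these labels and not by any measured value. All 12 cultures received DMSO, since it was also the vehicle of the drug, and 10 other compounds are served by the same control arrays. Poly(A) RNA was hybridized to Affymetrix rat genome arrays and the values are log2 expression, so that a difference of 1 means a doubling. The titles of the control arrays carry a code whose first part differs between replicate numbers and is shared by the times. The labels do not say what this code stands for, and the titles of the treated arrays carry none. The labels do not name animals, so each p measures only the spread between these arrays.

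Acetaminophen is cleared in the liver mainly by glucuronidation and sulfation of the parent drug. The remainder is oxidized by cytochrome P450s, among them Cyp2e1, Cyp1a2 and the Cyp3a enzymes, to a reactive quinone imine that glutathione captures. Once glutathione runs low the quinone imine binds proteins, in mitochondria above all, and the electrophile sensor NRF2, the kinase JNK and the unfolded protein response are the pathways best known to answer. The experiment asks which of these responses, and which others, are seen in the transcripts of hepatocytes kept in the drug for 0.67 or 1 d.

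The 12 arrays had medians of log2 5.56 to 5.64, within the 5.41 to 5.73 of the whole series, and the mean correlation of an array with the others of its group was 0.988 to 0.993. Markers of hepatocytes, among them albumin (Alb) and transthyretin, averaged 11.57 to 12.11 in acetaminophen arrays and 11.80 to 12.23 in DMSO arrays, at the median percentile 99.1 of all genes. Kupffer cell markers averaged 6.66 to 7.93 with acetaminophen and 6.58 to 7.73 with DMSO (percentile 44.8), and those of endothelial, stellate and bile duct cells lay lower, at percentiles 31.6, 34.1 and 12.9. Of these markers 1 was called, the hepatocyte gene Cps1. Fewer cells of a type and less RNA per cell cannot be told apart in such bulk samples.

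Both exposure times together, 351 of 14218 genes changed under acetaminophen (2.47%), 131 of them higher (0.921%) and 220 lower (1.55%), at a limma adjusted p of 0.01 or less and a change of 1.5-fold or more, which is what "called" means below. The counts of each gene list below are to be read beside these shares. An unadjusted limma p under 0.05 was found for 3661 genes, calls included. The response was of modest breadth for the series: in 123 fits of a compound at a dose, acetaminophen ranked 83 by number of genes called, where the median was 845. The fits held unequal numbers of control arrays, 6 for acetaminophen and up to 34, for zidovudine. The part of these numbers in the rank was not tested. Arrays of the 2 treatments shared some hybridization and RNA extraction days, and with these days as blocks 443 and 445 genes were called. Among the 3 acetaminophen and 3 DMSO arrays of 1 hybridization day, 0 genes passed (2505 at unadjusted p under 0.05), and among the 2 and 3 arrays of 1 extraction day 1 gene passed, while all 351 genes kept their direction in both subsets, whose arrays are part of the 12. Leaving out all 4 arrays with a given replicate number gave 76, 244 or 44 genes, and leaving out any 1 array gave 259 to 383.

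The largest increases were in secreted signals of inflammation. Cxcl10, a chemokine that draws T cells, was 4.94-fold higher, and Ccl20, which draws dendritic cells and lymphocytes, was 4.05-fold higher. Cxcl10 had log2 9.20, 8.02 and 9.13 at 0.67 d and 9.99, 9.73 and 10.43 at 1 d with acetaminophen, against 7.36, 6.66 and 7.05 at 0.67 d and 7.42, 6.63 and 7.54 at 1 d with DMSO. Every acetaminophen array was above every DMSO array (log2 change 2.31, SE 0.27, adjusted p = 0.000248). Ccl20 had 8.30, 8.62 and 6.76 at 0.67 d and 9.05, 9.50 and 7.88 at 1 d with acetaminophen, against 5.91, 6.23 and 5.67 at 0.67 d and 7.01, 6.71 and 6.47 at 1 d with DMSO. The groups did not overlap at either time, and replicate 3 was the lowest acetaminophen array at both (change 2.02, SE 0.31, adjusted p = 0.00129).

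In the list of 25 measured NF-kB cytokines and chemokines, 4 were called higher and 0 lower, and the median change was 0.214, against 0.002 over all genes. Cxcl2, which attracts neutrophils, had a change of 1.35 (SE 0.26, adjusted p = 0.00434), and its call was lost without any of 6 of the 12 arrays, at adjusted p of up to 0.0129. Nfkbia, the inhibitor that NF-kB itself induces, had 10.88, 10.64 and 10.45 at 0.67 d and 10.75, 10.71 and 10.27 at 1 d with acetaminophen, against 10.03, 10.04 and 9.82 at 0.67 d and 10.04, 9.80 and 9.99 at 1 d with DMSO. Its change of 0.66 (SE 0.10, adjusted p = 0.00116) separated all arrays. With replicate number as a block, for a reason given below, 495 genes were called in all (3.48%; 1.21% higher and 2.27% lower) and 6 members were called higher and 2 lower: Ccl2, a monocyte attractant (0.89, adjusted p = 0.000372), and Cxcl11 (0.86, adjusted p = 0.00198) joined those above, while Il1b (-0.83, adjusted p = 0.00124) and Cd14 (-0.60, adjusted p = 0.000565), both typical of macrophages, were lower. Of 11 Kupffer cell markers 0 were called, and the part of these cells in the result was not tested. Outside the list, Hamp, the iron hormone hepcidin, was higher by 1.82 (SE 0.29, adjusted p = 0.00152), with acetaminophen arrays at 11.60 to 12.89 and DMSO arrays at 9.59 to 11.09.

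The starts of the 4 called genes of this list are shown because the transcripts moved together and all carried letters of the kB site, the decamer that NF-kB binds, in the RefSeq window of 300 bases (assembly GRCr8, 250 bases before the start and 50 after it). Capitals mark the kB site on either strand.
Cxcl10, chr14:15988816-15989115, + strand: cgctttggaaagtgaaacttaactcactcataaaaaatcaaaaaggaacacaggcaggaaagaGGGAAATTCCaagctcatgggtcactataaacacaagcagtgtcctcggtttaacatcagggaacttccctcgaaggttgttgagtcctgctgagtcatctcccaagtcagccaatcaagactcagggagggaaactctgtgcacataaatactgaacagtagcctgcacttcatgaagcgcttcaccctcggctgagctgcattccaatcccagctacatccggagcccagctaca
Cxcl2, chr14:17467206-17467505, - strand: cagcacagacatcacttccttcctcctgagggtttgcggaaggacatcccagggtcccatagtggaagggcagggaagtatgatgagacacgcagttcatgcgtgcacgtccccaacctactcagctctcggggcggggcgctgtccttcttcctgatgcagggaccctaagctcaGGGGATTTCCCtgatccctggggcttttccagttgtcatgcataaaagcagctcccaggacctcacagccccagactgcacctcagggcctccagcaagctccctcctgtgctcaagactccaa
Ccl20, chr9:91836909-91837208, + strand: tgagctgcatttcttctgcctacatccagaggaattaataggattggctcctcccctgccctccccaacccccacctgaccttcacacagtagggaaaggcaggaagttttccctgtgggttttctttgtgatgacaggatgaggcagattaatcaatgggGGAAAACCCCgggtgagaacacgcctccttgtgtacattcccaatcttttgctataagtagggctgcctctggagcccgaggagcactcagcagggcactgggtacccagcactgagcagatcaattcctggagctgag
Nfkbia, chr6:78597023-78597322, - strand: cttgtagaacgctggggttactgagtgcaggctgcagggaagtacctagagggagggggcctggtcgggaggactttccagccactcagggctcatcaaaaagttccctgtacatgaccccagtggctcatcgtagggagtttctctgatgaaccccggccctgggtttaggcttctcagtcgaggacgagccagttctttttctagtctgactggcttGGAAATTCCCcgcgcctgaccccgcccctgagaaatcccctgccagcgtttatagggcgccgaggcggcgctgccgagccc
The site began at base -187 in Cxcl10, -74 in Cxcl2, -89 in Ccl20 and -31 in Nfkbia, counted from the start. It was present in 12 of the 20 promoters of the list that the table holds, and in 4.18% of all 33469 promoters of this length. The list was written from genes known to answer to NF-kB, so the letters are a description of its members and not evidence about this experiment.

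Targets of PPARa, the nuclear receptor that responds to fatty acids, were another group with members higher. Of 33 measured, 6 were called higher and 0 lower (median change 0.335), among them genes of fatty acid oxidation and of fuel choice. Pdk4, the kinase that shuts off pyruvate dehydrogenase, had 8.61, 7.99 and 8.73 at 0.67 d and 8.15, 8.28 and 8.52 at 1 d with acetaminophen, against 6.68, 6.51 and 6.65 at 0.67 d and 6.90, 6.24 and 6.66 at 1 d with DMSO. That is 3.41-fold, with a gap of over 1 log2 unit between the groups (change 1.77, SE 0.14, adjusted p = 2.01e-05). Angptl4, the secreted inhibitor of lipoprotein lipase, had 10.62, 11.22 and 11.19 at 0.67 d and 11.07, 11.17 and 11.16 at 1 d with acetaminophen, against 9.21, 9.95 and 9.23 at 0.67 d and 9.82, 9.93 and 9.30 at 1 d with DMSO. Here too every acetaminophen array was the higher (change 1.50, SE 0.15, adjusted p = 0.000112).

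Cpt1a, which loads fatty acids for entry into mitochondria, changed by 1.16 (SE 0.11, adjusted p = 4.38e-05), with acetaminophen arrays at 9.09 to 9.80 and DMSO arrays at 7.73 to 8.65. Hsdl2, a peroxisomal dehydrogenase, changed by 1.52 (SE 0.13), Cpt2, the inner-membrane partner of Cpt1a, by 0.59 (SE 0.09) and Cyp4a1, a fatty acid omega-hydroxylase with close paralogs, by 0.84 (SE 0.17). With replicate number as a block the peroxisomal genes Ehhadh (0.95, adjusted p = 0.000128) and Pex11a (0.74, adjusted p = 0.000115) and the paralog Cyp4a3 (0.70, adjusted p = 0.00892) were called as well, 9 in all. Plin2, which coats lipid droplets, was not called, and its probe sets differed in sign (-0.27 and 0.84). The list had a positive median within 1 hybridization day (0.371) and within 1 extraction day (0.395), subsets in which the replicate numbers of the 2 groups differ. Between arrays of the same number and time its median lay at 0.22 to 0.48. The peroxisome proliferator response element, searched on both strands, was in 0 of the 5 promoters of called members found in the table and in 0.415% of all promoters.

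**Figure D1:**
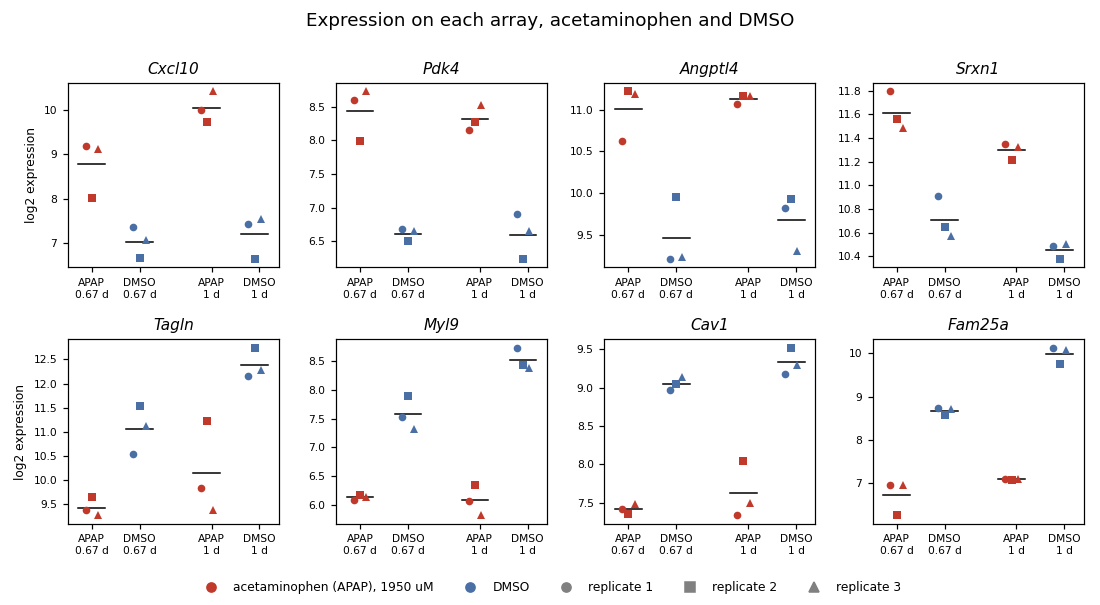
Log2 expression of 8 genes on each of the 12 arrays, acetaminophen (APAP, red) left of DMSO (blue) at 0.67 d and at 1 d; marker shapes are replicate numbers and bars are means of 3 arrays. Cxcl10, Pdk4, Angptl4 and Srxn1 lie higher with acetaminophen at both times, and Tagln, Myl9, Cav1 and Fam25a lie lower.

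NRF2 targets had few calls, and so few calls say little about the list. Of 44 measured NRF2 targets, 1 was called higher and 1 lower, with a median change of 0.050. That is 4.5% of the list, a share not below the 2.47% of all genes. Srxn1, the sulfiredoxin that repairs oxidized peroxiredoxins, was the member called higher. It had 11.80, 11.56 and 11.48 at 0.67 d and 11.35, 11.21 and 11.33 at 1 d with acetaminophen, against 10.91, 10.65 and 10.57 at 0.67 d and 10.49, 10.38 and 10.51 at 1 d with DMSO. The gap was complete (change 0.87, SE 0.08, adjusted p = 4.07e-05), although the change was 0.52 and under the fold bound with all control arrays of the campaign. Nqo1, the quinone reductase, had a change of 0.36 (SE 0.11, adjusted p = 0.0513) and Txnrd1, thioredoxin reductase, 0.40 (SE 0.10, adjusted p = 0.0239), both under the fold bound. Hmox1, the heme oxygenase, had 0.10 (SE 0.33, adjusted p = 0.922) and Slc7a11, the cystine importer, -0.15 (SE 0.40, adjusted p = 0.904). In this fit, without replicate number as a block, their errors were too wide for a 1.5-fold change to be detectable. Neither gene was called with the block.

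Gpx2, a glutathione peroxidase, was the member called lower, with 8.83, 8.57 and 8.79 at 0.67 d and 9.03, 9.44 and 9.11 at 1 d under acetaminophen, against 9.86, 9.43 and 9.74 at 0.67 d and 10.35, 10.26 and 10.30 at 1 d under DMSO. The change of -1.03 (SE 0.10, adjusted p = 5.3e-05) depended on the control set, since against all control arrays of the campaign it was 0.17 (adjusted p = 0.856). With replicate number as a block Akr1b8 (-0.98, adjusted p = 0.000551) and Ptgr1 (-0.62, adjusted p = 0.000695), both reductases of reactive aldehydes or ketones, were called lower too, which made 1 NRF2 target higher and 3 lower.

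The start of Srxn1 is shown as that of the 1 member called higher. The form of the antioxidant response element that was searched, TGACNNNGC, was not among its letters. The related AP-1 element TGANTCA, in capitals, occurred at bases -62 and -5. The match at -5 is followed by GC and differs from the searched form only in having G where that form has C. Forms with G at this base were not searched, so the search does not show that the element is absent.
Srxn1, chr3:161064562-161064861, + strand: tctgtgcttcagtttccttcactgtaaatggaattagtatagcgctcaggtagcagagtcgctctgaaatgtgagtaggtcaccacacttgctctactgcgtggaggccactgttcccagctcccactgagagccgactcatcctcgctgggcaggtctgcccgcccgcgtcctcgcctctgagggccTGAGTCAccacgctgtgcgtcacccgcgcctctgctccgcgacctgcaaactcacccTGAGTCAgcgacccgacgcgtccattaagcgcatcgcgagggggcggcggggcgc
TGANTCA stood in 6 of 38 promoters of the NRF2 list and in 7.33% of all promoters, and TGACNNNGC in 10 of 38 and in 12.1%.

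The enzymes that handle the drug were mostly within the spread of the arrays. In the list of bioactivating enzymes 0 of 14 were called (median 0.10), beside 2.47% of all genes. Cyp2e1 had 11.65, 9.95 and 10.97 at 0.67 d and 10.74, 9.17 and 10.56 at 1 d with acetaminophen, against 11.35, 9.75 and 10.43 at 0.67 d and 10.32, 8.46 and 9.80 at 1 d with DMSO. The groups overlapped widely, yet each acetaminophen array lay 0.20 to 0.76 above the DMSO array of the same number and time. The change of 0.49 was not called without the block (adjusted p = 0.54) and stayed under the fold bound with it (adjusted p = 0.00465). Cyp1a2 had a change of -0.10 (SE 0.09, adjusted p = 0.584) and Cyp3a9 -0.53 (SE 0.13, adjusted p = 0.016).

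Of 18 genes of glucuronidation and sulfation 0 were called higher and 1 lower, Slc26a1, which imports sulfate (-0.81, SE 0.11, adjusted p = 0.000622). With the block 3 were lower, the phenol sulfotransferases Sult1a1 (-0.94, adjusted p = 0.000148) and Sult1b1 (-0.86, adjusted p = 5.82e-05) being the others. Sult1a1 had 8.81, 9.56 and 9.58 at 0.67 d and 8.94, 9.58 and 9.82 at 1 d with acetaminophen, against 9.86, 10.76 and 11.05 at 0.67 d and 9.65, 10.10 and 10.52 at 1 d with DMSO. Among 19 genes of glutathione synthesis and recycling Gpx2 alone was called. Gclc and Gclm, the subunits of the rate-limiting enzyme, had changes of 0.26 (SE 0.21, adjusted p = 0.536) and 0.19 (SE 0.22, adjusted p = 0.714). Of 20 glutathione S-transferases, a family with closely related sequences, 1 was called lower, Gstm5 (-0.63, SE 0.10, adjusted p = 0.00114, and -0.54 without replicate 1 of acetaminophen at 1 d, under the fold bound), and 15 had a change below 0 (median -0.258).

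**Figure D2:**
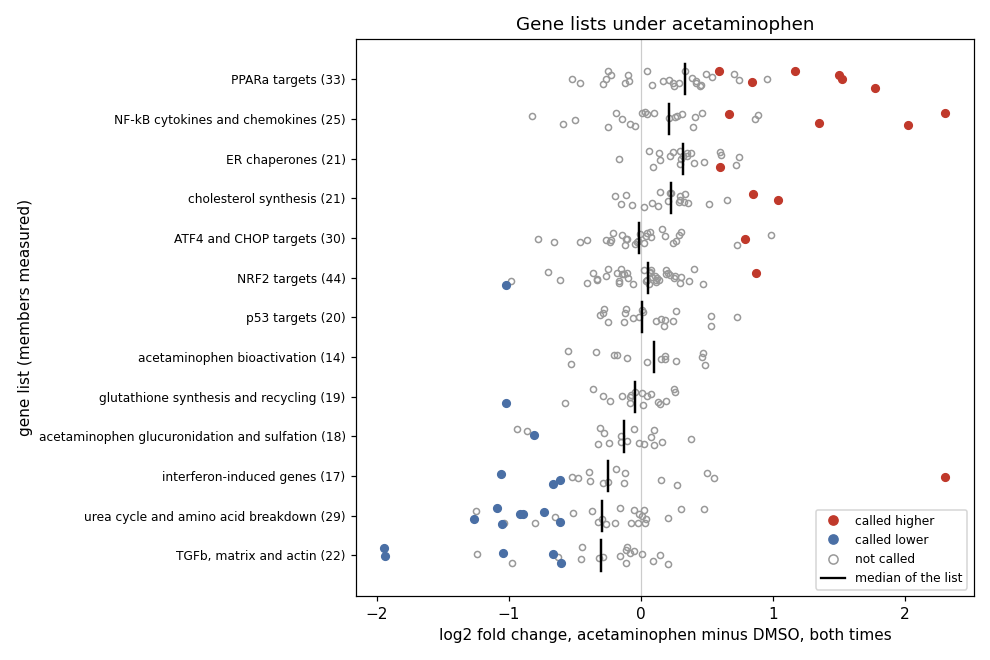
Log2 change under acetaminophen relative to DMSO, both times together, for the members of 13 gene lists, with called members in red (higher) or blue (lower), other members as open circles and the median as a black bar. Called members lie to the right in the PPARa and NF-kB lists and to the left in the lists of amino acid breakdown and of matrix and actin.

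Ddit3, the stress transcription factor CHOP, shows why the replicate number matters here. It had 9.92, 11.41 and 9.42 at 0.67 d and 9.34, 10.53 and 8.87 at 1 d with acetaminophen, against 8.83, 10.47 and 8.11 at 0.67 d and 8.29, 9.84 and 8.05 at 1 d with DMSO. Replicate 2 was the highest array of all 4 groups, so the groups overlapped, but each acetaminophen array exceeded the DMSO array of its number and time, by 0.70 to 1.32. The change of 0.99 was not called in the fit without the block (SE 0.47, adjusted p = 0.21) and was called with it (adjusted p = 3.87e-05).

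Genes of the endoplasmic reticulum behaved alike. In the list of 21 chaperones and partners 20 had a change above 0 (median 0.320), and 1 was called, Syvn1, a ubiquitin ligase of misfolded proteins (0.60, SE 0.11, adjusted p = 0.00398, and not called without any of 5 of the 12 arrays, with changes down to 0.52). With the block 5 were called higher and 0 lower, namely Syvn1, Sel1l (0.74, adjusted p = 7.33e-05), Hyou1 (0.72, adjusted p = 0.000552), Pdia4 (0.60, adjusted p = 0.0018) and Creld2 (0.59, adjusted p = 0.000234). Pdia4, a disulfide isomerase, lay at 12.51 and 12.29 on acetaminophen arrays of replicate 2, against 11.65 and 11.67 on the DMSO arrays of that number, and at 9.80 and 9.62 on those of replicate 3, against 9.42 and 9.38. The median of the list was -0.038 between arrays of 1 hybridization day and 0.62 between those of 1 extraction day. In both subsets the replicate numbers of the 2 groups differ. On the extraction day both acetaminophen arrays were replicate 2, while the DMSO arrays were replicates 2, 3 and 2. Neither median is therefore a comparison within replicate numbers.

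Of 30 targets of ATF4 and CHOP 1 was called higher and 0 lower (median -0.018), and with the block 3 were higher and 2 lower. Atf3, a transcription factor induced by many stresses, changed by 0.79 (SE 0.11, adjusted p = 0.000841), with 10.61, 10.23 and 10.16 at 0.67 d and 9.76, 9.73 and 9.64 at 1 d under acetaminophen, against 9.50, 9.32 and 9.13 at 0.67 d and 9.10, 9.34 and 9.03 at 1 d under DMSO. Gdf15, a secreted stress hormone, was called with the block (0.73, adjusted p = 0.00934), and the serine synthesis enzyme Phgdh (-0.66, adjusted p = 0.00101) and the folate enzyme Aldh1l2 (-0.78, adjusted p = 0.000153) were then lower. Asns and Trib3, other targets of ATF4, had changes of -0.03 (SE 0.14) and 0.04 (SE 0.17).

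**Figure D3:**
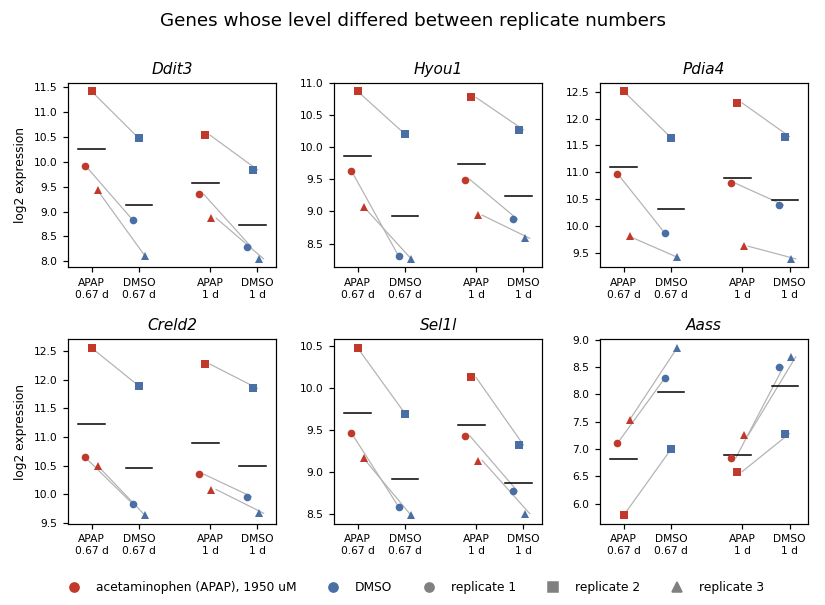
Log2 expression of 6 genes whose level differed between replicate numbers, acetaminophen (APAP, red) left of DMSO (blue) at each time; grey lines join arrays with the same number, and bars are means of 3 arrays. The groups overlap for Ddit3, Hyou1, Pdia4 and Creld2, but each line falls from acetaminophen to DMSO, and for Aass each line rises.

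The immediate early gene Egr1 was higher, by 0.94 (SE 0.12, adjusted p = 0.000521), with 10.02, 9.62 and 9.83 at 0.67 d and 10.45, 10.39 and 10.29 at 1 d under acetaminophen, against 9.44, 8.74 and 9.15 at 0.67 d and 9.22, 9.17 and 9.22 at 1 d under DMSO. With Atf3 it made 2 of 26 members of the JNK and AP-1 list called higher and 0 lower, and Jun had a change of 0.01 (SE 0.09). In humans and mice the serum response factor drives Egr1 through CArG boxes, of which this window held 2, at bases -105 and -83 (capitals), against 1.64% of all promoters with any.
Egr1, chr18:26736828-26737127, + strand: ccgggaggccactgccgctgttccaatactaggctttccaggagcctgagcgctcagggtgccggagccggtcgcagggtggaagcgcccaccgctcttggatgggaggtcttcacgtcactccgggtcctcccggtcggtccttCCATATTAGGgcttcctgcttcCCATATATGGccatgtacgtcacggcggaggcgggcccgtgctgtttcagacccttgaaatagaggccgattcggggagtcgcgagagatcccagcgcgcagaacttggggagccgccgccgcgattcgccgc
The same factor serves many genes of the actin cytoskeleton. None of the 3 promoters of called members of the matrix and actin list in the table held these letters, and Tagln and Myl9 are not among those 3.

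Genes of actin filaments, adhesion and matrix were among those lower. In the list of 22, 0 were called higher and 5 lower (median -0.306), or 7 lower with the block, which added the growth factor Tgfb2 (-0.98) and Lox (-1.25), a crosslinker of collagen. The 5 were Tagln, Myl9, Ccn2, Tpm1 and Flna. Tagln, the actin-bundling transgelin, had 9.37, 9.64 and 9.27 at 0.67 d and 9.84, 11.22 and 9.37 at 1 d with acetaminophen, against 10.53, 11.54 and 11.13 at 0.67 d and 12.15, 12.74 and 12.28 at 1 d with DMSO. The groups were apart at each time, and the acetaminophen level was 0.260 times that of DMSO (change -1.94, SE 0.28, adjusted p = 0.000786). Myl9, a regulatory myosin light chain, had 6.08, 6.17 and 6.14 at 0.67 d and 6.07, 6.35 and 5.82 at 1 d with acetaminophen, against 7.52, 7.89 and 7.32 at 0.67 d and 8.73, 8.43 and 8.38 at 1 d with DMSO (change -1.94, SE 0.18, adjusted p = 4.38e-05). The DMSO cultures were higher at 1 d than at 0.67 d for both genes.

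Tpm1, a tropomyosin, changed by -0.67 (SE 0.08), Flna, the actin crosslinker filamin A, by -0.61 (SE 0.10) and Ccn2, a matricellular protein, by -1.05 (SE 0.19, adjusted p = 0.00358, and 0.011 without replicate 2 of DMSO at 0.67 d). Cav1, the coat protein of caveolae, had 7.42, 7.36 and 7.48 at 0.67 d and 7.34, 8.04 and 7.50 at 1 d with acetaminophen, against 8.97, 9.05 and 9.13 at 0.67 d and 9.18, 9.52 and 9.29 at 1 d with DMSO. All 3 of its probe sets agreed (changes of -1.67, -1.46 and -1.54, adjusted p = 1.43e-05 for the first over all genes). Vil1, which bundles actin in microvilli, changed by -1.69 (SE 0.22), Dysf, of membrane repair, by -1.72 (SE 0.31) and S100a6, a calcium-binding protein, by -1.53 (SE 0.20). Against all control arrays of the campaign Tagln had a change of -1.34 (adjusted p = 0.0117), Ccn2 -0.77 (0.011), S100a6 -0.68 (0.0875) and Tpm1 -0.57 (1.72e-07, under the fold bound), so that these 4 were not called there. Stellate cell markers, which could also carry actin genes, averaged 5.28 to 6.04 in acetaminophen arrays and 5.43 to 6.16 in DMSO arrays, with 0 of 12 genes of the full list called, and their part in the result was not tested.

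Enzymes that break down amino acids had the most members called lower of these lists. Of 29 genes of the urea cycle and amino acid breakdown 0 were called higher and 7 lower (median -0.297), and 11 with the block. Cps1, which starts the urea cycle, had 9.02, 9.64 and 10.32 at 0.67 d and 9.54, 9.95 and 10.82 at 1 d with acetaminophen, against 10.70, 11.47 and 11.73 at 0.67 d and 10.62, 11.15 and 11.23 at 1 d with DMSO. The groups overlapped at 1 d, and the call (change -1.27, SE 0.28, adjusted p = 0.00967) was lost in 10 of 12 fits without 1 array, at adjusted p of up to 0.0269, but it was kept with the block (adjusted p = 0.000114). Fah and Hgd, which act in tyrosine breakdown, changed by -0.89 (SE 0.13, adjusted p = 0.000833) and -1.09 (SE 0.19, adjusted p = 0.00285). Gldc of glycine cleavage changed by -0.92 (SE 0.14), Kmo and Haao of the kynurenine pathway by -0.74 (SE 0.13) and -0.62 (SE 0.13), and Gpt, alanine aminotransferase, by -1.05 (SE 0.21, lost without any of 9 of the 12 arrays). The block added Tdo2, Hal, Uroc1 and Aass, the last with -1.25 (adjusted p = 7.89e-05) and each acetaminophen array 0.70 to 1.67 below its DMSO counterpart. The wider list of 21 hepatocyte markers was not lower as a whole: its median change was 0.002, 11 members were above 0 and Cps1 was the 1 called, or 3 with the block, with Tdo2 and Pck1. Between arrays of the same number its median lay at -0.14 to -0.09 at 0.67 d and at 0.02 to 0.09 at 1 d.

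Of 15 genes of methionine and transsulfuration 0 were called higher and 1 lower, Cbs (-0.93, SE 0.13, adjusted p = 0.000615), which joins homocysteine to serine, and the block added Bhmt (-0.62, adjusted p = 0.00339) and Csad (-1.03, adjusted p = 0.0017). Of 13 genes of gluconeogenesis and glycogen 0 were higher and 1 lower, the glucose carrier Slc2a2 (-0.61, SE 0.11, lost without any of 2 arrays), and the block added Pck1 (-0.95, adjusted p = 0.00181), which commits carbon to glucose, and the glycogen synthase Gys2 (-0.69, adjusted p = 0.00128).

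Of 20 transporters 1 was called higher and 3 lower (20.0% of the list, beside 2.47% of all genes, median -0.197). Abcb11, the bile salt export pump, changed by -1.03 (SE 0.19, adjusted p = 0.00333), Slco1b2, an uptake transporter of organic anions, by -1.23 (SE 0.23, adjusted p = 0.00425) and Slc22a8 by -0.79 (SE 0.15, adjusted p = 0.00418). Each lost its call without at least 1 array, at adjusted p of up to 0.0105 for Abcb11, 0.012 for Slco1b2 and 0.0124 for Slc22a8. Abcb4, the phospholipid flippase of bile, changed by 0.60 (SE 0.08, adjusted p = 0.000713), and its change was 0.55 to 0.58, under the fold bound, without any of 4 arrays. Abcc2, which exports the glutathione and glucuronide conjugates of the drug, had -0.13 (SE 0.14, adjusted p = 0.701).

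Among 28 constitutive P450s 0 were called higher and 3 lower, Cyp2f4, Cyp4f1 and Cyp4f4, at changes of -0.62, -0.66 and -0.74, each lost without any of 9 or 10 of the 12 arrays, and the block added Cyp2c12 (-1.02, adjusted p = 0.00205). Mbl2 and Mbl1, the secreted mannose-binding lectins, changed by -1.18 (SE 0.22) and -0.61 (SE 0.10), each lost without any of 2 or 3 arrays, and made the 2 called of 25 genes of complement and coagulation, to which the block added Klkb1, plasma prekallikrein (-0.74, adjusted p = 0.0019). Of 17 interferon-induced genes 1 was called higher, Cxcl10, and 3 lower, Mx2 (-1.06, SE 0.14), Oas1a (-0.66, SE 0.13) and Ifit2 (-0.62, SE 0.12), of which Oas1a and Ifit2 were lost without any of 9 and 8 of the arrays. The cholesterol list had 2 of 21 called higher, Acat2 (1.03, SE 0.11) and Stard4 (0.85, SE 0.09), and a median of 0.227, and the block added Hsd17b7 (0.65, adjusted p = 0.00273). The called shares, beside 2.47% of all genes, were 10.7% of these P450s, 8.0% of complement and coagulation, 23.5% of interferon-induced genes and 9.5% of the cholesterol list. No member was called of 20 p53 targets, 7 AhR targets, 17 CAR and PXR targets, 23 genes of cell death, 51 nuclear genes of oxidative phosphorylation or 30 proteasome subunits. At the share of all genes, lists of these sizes can hold 0 calls, so these counts do not show absent responses. Among these members Cdkn1a had 0.15 (SE 0.25), Mdm2 -0.01 (SE 0.09) and Cyp1a1 0.19 (SE 0.52). With the block Gdf15, given above, was the 1 member of the p53 list called, and the other 5 lists stayed at 0.

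The 15 largest changes in each direction held further genes outside these lists. Fam25a, whose role is unsettled, changed most of all: 6.96, 6.26 and 6.96 at 0.67 d and 7.11, 7.08 and 7.10 at 1 d with acetaminophen, against 8.74, 8.57 and 8.71 at 0.67 d and 10.13, 9.76 and 10.08 at 1 d with DMSO (change -2.42, SE 0.175, adjusted p = 1.55e-05). Igfals, the liver-made carrier subunit of insulin-like growth factors, changed by -1.76 (SE 0.15), Inhba, the activin A subunit, by -1.93 (SE 0.17), Slc15a1, a peptide transporter, by -1.61 (SE 0.11) and Aqp8, a water channel, by -1.52 (SE 0.32, lost without any of 9 of the arrays). A second probe set of Inhba, at a mean level of 4.89, had -0.14. Upward, Hexim1, which restrains transcription elongation, changed by 1.23 (SE 0.12), Acss2, which makes acetyl-CoA from acetate, by 1.22 (SE 0.15), Gde1, a glycerophosphodiesterase, by 1.23 (SE 0.11), Ap1s2, an adaptor of clathrin coats, by 1.51 (SE 0.14), and Soat1, which esterifies cholesterol, by 1.44 (SE 0.27, lost without any of 5 of the arrays). Of the genes that stand out against the other compounds below, the block called the chemokine Cx3cl1 (1.53, adjusted p = 0.000113), the enolase Eno2 (0.74, adjusted p = 0.00111) and Tsx (-1.05, adjusted p = 0.000191).

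At 0.67 d alone 136 genes were called (0.957%), 70 higher (0.492%) and 66 lower (0.464%), and at 1 d 61 (0.429%), 21 higher (0.148%) and 40 lower (0.281%), and 40 genes were called in the same direction at both times. At both times and in the same direction, the arrays of the groups did not overlap for 1418 genes (9.97%), 748 higher (5.26%) and 670 lower (4.71%) with acetaminophen, so the separation of any gene named here is to be read beside that share. With the block the counts were 503 and 335, and without a given replicate number they were 0 to 4 at 0.67 d and 0 to 27 at 1 d. The difference of the effect between the times was called for 0 genes by limma (0%), 343 having an unadjusted p under 0.05, and for 0 with the block. Cxcl10, for example, changed by 1.76 at 0.67 d and 2.85 at 1 d (difference 1.10, adjusted p = 1), Npas2, of the circadian clock, by -1.45 and -0.51, and Atf3 by 1.02 and 0.56, differences that these arrays cannot separate from 0. Myl9 changed by -1.44 at 0.67 d and -2.43 at 1 d.

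L-Buthionine Sulfoximine, which blocks the synthesis of glutathione, was compared because glutathione is at issue for both compounds. Its 6 arrays, at 100000 uM and the same times, have 16 DMSO control arrays of their own, so each compound was set over its own controls and the differences were tested. The doses differ and are not matched for toxicity. Acetaminophen differed from it in 1680 genes (11.8%), 874 with the higher change under acetaminophen (6.15%) and 806 with the lower (5.67%). This split became 655 and 1163 with each array's median subtracted. With replicate number as a block within the arrays of each compound, a fit added later, 2085 genes differed, 1070 higher and 1015 lower. Agreement between equal numbers was checked only for the arrays of acetaminophen and its controls. Some controls of L-Buthionine Sulfoximine carry numbers that none of its treated arrays has. Whether its equal numbers form pairs was not tested, and the block counts against it below carry this limit. Of the genes called under acetaminophen 181 were called in the same direction under L-Buthionine Sulfoximine, which called 2285 (16.1%; 7.29% higher and 8.78% lower), and 13 in the opposite one.

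The lists of NRF2 and of ATF4 and CHOP targets differed between the compounds. The list counts against L-Buthionine Sulfoximine, here and below, were not renewed with each array's median subtracted, which moved the split over all genes. Of 44 NRF2 targets, L-Buthionine Sulfoximine called 13 higher and 1 lower. For 9 the change was lower with acetaminophen than with it, and for 13 with the block. Slc7a11 had a change of -0.15 under acetaminophen and 2.40 under L-Buthionine Sulfoximine (difference -2.54, SE 0.63, adjusted p = 0.00201), and Osgin1, an oxidative stress-induced growth inhibitor, 0.20 and 1.33 (difference -1.12, SE 0.12, adjusted p = 1.54e-08). For Srxn1 the changes were 0.87 and 1.19, and the difference of -0.32 (SE 0.17, adjusted p = 0.192) was not called, with an interval of about 2 SE that reaches 0. Of 30 targets of ATF4 and CHOP 11 were lower with acetaminophen, and 14 with the block. Trib3 was among the 11 (0.04 and 1.15, difference -1.10, SE 0.19, adjusted p = 3.16e-05).

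The reverse held for the lists with members called higher under acetaminophen. Of 33 PPARa targets 11 had the higher change with acetaminophen and 1 the lower, and of 25 NF-kB cytokines and chemokines 6 and 0. With the block these counts were 15 and 3 for PPARa, and 5 and 1 for NF-kB. Ccl20 had 2.02 under acetaminophen and -1.44 under L-Buthionine Sulfoximine (difference 3.46, SE 0.43, adjusted p = 2.6e-07), the largest of the called differences upward, and Ccl2 had 0.89 and -2.49 (difference 3.38, SE 0.73, adjusted p = 0.000528). Fosl1, an AP-1 subunit, marked the other end, with -0.64 and 2.11 (difference -2.75, SE 0.34, adjusted p = 3.4e-07). In the list of matrix and actin, 0 members had the higher change with acetaminophen and 1 the lower, or 0 and 2 with the block.

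**Figure D4:**
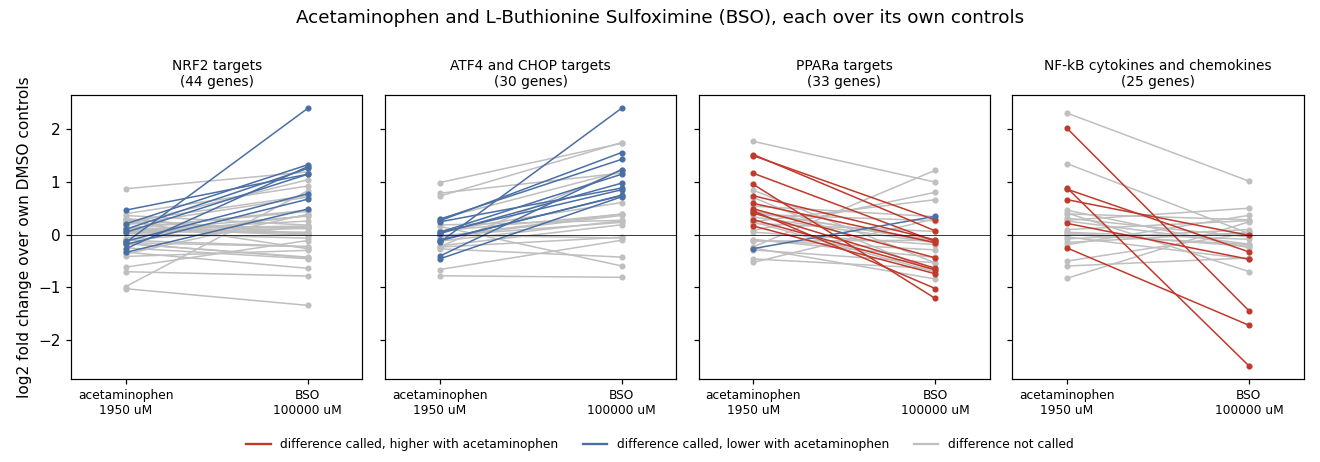
Log2 change over own DMSO controls for the members of 4 gene lists, acetaminophen at 1950 uM on the left and L-Buthionine Sulfoximine (BSO) at 100000 uM on the right of each panel; each line is a gene, red or blue where the difference between the compounds was called higher or lower with acetaminophen. The calls are those of the fit without the replicate block. Blue lines mark 9 and 11 genes in the NRF2 and ATF4 panels. Red lines mark most called differences in the PPARa and NF-kB panels (11 and 6 genes).

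D-Galactosamine, which traps uridine nucleotides in the liver, shares the 6 DMSO arrays among its 10 controls, so its 6 arrays at 470 uM were set directly against those of acetaminophen. The other 4 controls carry other title codes, and 2 of its arrays at each time have replicate number 1. Its arrays may therefore come from other hepatocyte preparations, which the labels do not state. Preparation could not be a term of this contrast, and its part in the differences was not tested. The called differences numbered 511 (3.59%), 229 higher (1.61%) and 282 lower (1.98%) with acetaminophen, and 124 (33 higher, 91 lower) with RNA extraction day as a block. Angptl4 averaged 11.07 with acetaminophen and 9.41 with D-Galactosamine (difference 1.67, SE 0.18, adjusted p = 0.000186), and Slco1b2 6.55 and 8.59 (difference -2.03, SE 0.20, adjusted p = 0.000115). Of 33 PPARa targets 6 were higher with acetaminophen and 0 lower, and 3 and 0 with the day as a block. Of 27 genes of glycolysis and hypoxia 9 were higher and 0 lower, but 0 and 0 with that block, and the part of the extraction day in the difference was not tested further. Without replicate 1 of acetaminophen 221 genes were called and without replicate 3 309.

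Set against the 111 fits of a compound at a dose that share no control array with acetaminophen, some of these changes were common and others scarce. Pdk4 was called higher in 63 of the 111 and lower in 0, Gde1 in 71 and 0, Atf3 in 63 and 1 and Srxn1 in 42 and 0, while Igfals was lower in 71, Fam25a in 65 and Mbl2 in 76. Ccl20 was called higher in 2 and lower in 39, Cxcl10 higher in 14 and lower in 19 and Nfkbia higher in 4 and lower in 17. Gpx2 was lower in 10 and higher in 2. These counts describe the series, and the difference between compounds was not tested beyond those given above.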

How the data were processed

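Expression was measured on 12 arrays, 6 of acetaminophen and 6 of its DMSO controls, within 939 arrays. The log2 values were deposited by the authors in 1 table of 31099 probe sets. The submitters' processing notes name RMA with no version, and the study's methods name its frozen form for the whole collection, so a renewed background correction was not possible here. The values were used as they stood, and 0 columns lacked a sample.

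Probe sets were named with the platform annotation (20832 with 1 gene symbol, 436 with several, 9831 with none), 20764 of them updated through the RefSeq table of GRCr8. A gene was represented by its probe set with the highest mean, which gave 14218 genes. They were fitted with limma 3.58.1 in R 4.3.3, with exposure time and treatment as factors, a moderated prior and Benjamini-Hochberg adjustment over all genes. Times and their interaction came from a fit of 4 groups. The study's methods use a test per gene corrected for time with the same bounds (0.01 and 1.5-fold). On simulated data with 100 genes changed by log2 1 and 100 by log2 2 among 14218, for the comparison over both times, 92 and 99 were recovered, with 1 false call. The simulated noise was independent between arrays, without effects of time, day or replicate number. These figures check the code and do not give the recovery or false calls in the real arrays. The number of arrays limits the precision.

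Replicate numbers were checked on the residuals of the 4 groups. All 18 pairs of arrays with the same number had a correlation above 0.1 (mean 0.491), and all 12 arrays agreed best with their own number. The mean between numbers was -0.244. Since each group was centered on its own mean, that value largely follows from the first mean and is no separate evidence. The titles of control arrays carry a code with 1 first part per number, of unstated meaning, and those of treated arrays none. The pairing therefore rests on the residuals. The number also tracks the RNA extraction day. Arrays of number 1 were extracted on days 3 and 4, those of number 2 on day 2 and those of number 3 on days 1 and 2. Shared culture and shared processing cannot be told apart from these residuals. For acetaminophen over DMSO, the fit with the number as a block is printed where it changed a call of a gene or list named in the text. For the difference from L-Buthionine Sulfoximine it is printed for the counts only, and the numbers of its arrays were not checked.

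Genes were named by rule: the 15 largest changes in each direction, for each list its 4 largest called and up to 3 abundant uncalled members, a fixed set of acetaminophen genes, and the 5 largest differences in each direction against each other compound. Ugt1a6, Hspa1b and Mt2 of the fixed set are not analysed here. Not every gene named by the rule is described in the text. Among the 15 largest, Apeg3 and Golm2, higher, and Poteml2, Pla2r1, Clcn4 and Kctd15, lower, were left out. Other called members of the lists, members called only with the block, and Osgin1 go beyond this rule and were chosen after their values were seen. The members and lists were chosen with earlier results of these data known. The motifs kB, CArG and the PPARa repeat, and the fits within a day, were added after seeing the data. Alternatives are given in the closing section.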

Additional observations from a re-analysis of the deposited data

Results flagged for a closer look

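Ugdh, which makes the UDP-glucuronic acid used for glucuronidation, moved in opposite directions at the 2 times. It had 11.69, 11.60 and 11.66 with acetaminophen at 0.67 d, below all of 11.92, 11.71 and 11.82 with DMSO, and 12.03, 11.97 and 11.93 with acetaminophen at 1 d, above all of 11.81, 11.43 and 11.75 with DMSO. The difference of the effect, 1 d minus 0.67 d, was 0.48 on the log2 scale. It was not called by limma (adjusted p = 1, and 0.567 with replicate number as a block).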

How the results depend on the processing

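Both times together, 351 genes were called (131 higher, 220 lower). The ordinary linear model per gene, which stands for the methods' test, called 196 (87, 109), a bound of 2-fold 76 (23, 53) and all control arrays of the campaign 610 (266, 344), of which 237 were among the 351. Within 1 hybridization day the counts were 0, 0 and 0, and within 1 extraction day 1, 0 and 1, fits with 6 and 5 arrays that were chosen after seeing the data. Leaving out arrays gave 44 to 383 genes (19 to 161 higher, 25 to 244 lower), the low end from a whole replicate number. At 0.67 d, 136 genes became 503 with the replicate block (245, 258) and 0 to 4 without a number (0 to 2 in either direction). At 1 d, 61 became 335 (99, 236) and 0 to 27 (0 to 2 higher, 0 to 25 lower). Against D-Galactosamine, 511 became 124 with extraction day as a block (33, 91; also added later) and 221 to 557 without an acetaminophen replicate number (99 to 278, 122 to 279). The trended prior, a bound of 0.05, other normalizations, probe set medians, the filter on low genes and the day blocks kept the count within 1.5 times, as did the replicate block over both times (495, holding all 351). Of 65 named genes called, 64 kept their direction in every setting and Gpx2 was reversed against all control arrays of the campaign (0.17). All 65 stayed called with the replicate block, which added 7 named genes and changed no other call among them; 43 stayed called without any 1 array. The cause of these shifts was not tested. Depth cannot be stated for arrays, and 6 arrays a group limit what is detectable.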

Other observations

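Histone genes were a group outside the lists, noticed after their values were seen and so given without a test. Of 20 histone genes measured, 5 were called higher under acetaminophen and 0 lower, 17 had a change above 0 and the median was 0.209. H1f2, a linker histone, led with a change of 1.42 (SE 0.12, adjusted p = 3e-05 by limma), then Hist4h4 with 0.98 (SE 0.13), H1f10 with 0.92 (SE 0.19), H2ax, the variant marked at DNA breaks, with 0.90 (SE 0.11) and H2ac25 with 0.77 (SE 0.12). H1f2 averaged 11.35 on acetaminophen arrays and 9.93 on DMSO arrays, and every acetaminophen array was above every DMSO array, of which the highest had 10.33. Histone genes have near-identical copies, so probe sets may share signal between them. Of 30 genes of DNA replication and mitosis 1 was called, Pcna (0.66, SE 0.11, adjusted p = 0.00228), and 24 had a change below 0. H1f2 was also 1.85 higher with acetaminophen than with D-Galactosamine (SE 0.10), and it was called higher in 12 and lower in 6 of the 111 fits of other compounds.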
